A study of Mus musculus with 14 samples.

Results

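The genes described here are Nlrp4a, Nlrp4b, Nlrp4c, Nlrp4e, Nlrp9a, Nlrp9b, Nlrp9c and Nlrp14, which are expressed in oocytes and lie outside the subcortical maternal complex. They were chosen by name and family, and they are 8 of the 24064 genes in the count table. RNA-seq was carried out on single ovulated mouse oocytes to ask how transcript levels differ when the histone demethylase Kdm1a (Lsd1) is deleted in the female germline. The control group held 4 oocytes of genotype wt/wt and strain C57BL/6J (wt1, wt3, wt4 and wt5) and 1 oocyte of genotype flox/flox (f/f) and mixed B6;129 strain (C3), which carries the conditional Kdm1a allele without Cre. The mutant group held 5 oocytes of mixed B6;129 strain (D1, D2, D3, D4 and D7), labelled mko/mko, which come from f/f females with a Cre transgene under the Zp3 promoter. This promoter is active in growing oocytes, and in the conditional allele loxP sites flank the first exon of Kdm1a, so that the gene is intact until oocyte growth. Ages of the females are not stated for the oocytes, and the extraction protocol in the labels is worded for embryos at cleavage stage.

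Strain and the naming scheme of the libraries coincide with wt/wt oocytes against the others, so that neither can be told apart from genotype in a comparison with wt/wt oocytes. The f/f oocyte is the control that shares both with the mutants. Of the 14 libraries, C3, D3, D4 and D7 each have a pair under 1 oocyte name, and these were summed to give 10 oocytes. The labels number paired libraries as separate oocytes and do not settle this reading. Total counts were 1375187, 1740242, 1892015 and 1637050 in wt1, wt3, wt4 and wt5 and 6928548 in C3. They were 2346547, 2016701, 3245395, 6926076 and 2135951 in D1, D2, D3, D4 and D7. The labels do not say that the oocytes came from separate females, so p-values measure the spread between these oocytes.

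NLR proteins carry a nucleotide-binding NACHT domain and leucine-rich repeats, and several of them sense infection or damage and assemble inflammasomes in immune cells. A separate branch of the family is transcribed in the female germline, where NLRP5 is a core protein of the subcortical maternal complex that oocytes store for the cleaving embryo. The Nlrp4 and Nlrp9 subfamilies expanded in rodents by duplication, and maternal NLRP14 is needed for development of the early embryo.

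Kdm1a was counted before any other gene as a check of the labels. Counts in wt1, wt3, wt4, wt5 and C3 were 70, 43, 85, 27 and 669, and those in D1, D2, D3, D4 and D7 were 0, 2, 4, 3 and 10. No library went against its label by this count, and in CPM each mutant was below each control. Reads outside the exon that Cre removes do not check the deletion itself. Nnt, part of which is deleted in C57BL/6J mice, had 0 counts in all 5 control oocytes, C3 included, and 9, 2, 20, 38 and 3 counts in D1, D2, D3, D4 and D7. A count of 0 allows for up to 3 counts in each oocyte, which covers counting error alone, since the reads carry no molecular identifiers. In raw counts D2 and D7 are within that bound, but the oocytes differ in depth. In C3, which has the highest total, 3 counts are 0.666 CPM. Nnt was above this level in each mutant, the lowest being D2 at 1.218 CPM and D7 at 1.496 CPM. The values of D2 and D7 rest on 2 and 3 counts. By Nnt the f/f oocyte is therefore set apart more clearly from D1, D3 and D4 than from D2 and D7.

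All 8 Nlrp genes had counts in every oocyte and passed the filter on low counts. CPM values are read counts over library sizes adjusted by TMM factors. To be called between mutant and control oocytes, a gene needed both an adjusted p under 0.05 and a log2 fold change of 1 or more in either direction. Of the 8 genes 2 were called, Nlrp14 as higher and Nlrp4a as lower, and 6 were not. Among the 9198 genes tested 25.9% were called, 14.7% as higher and 11.2% as lower, so a count of 2 of 8 is close to the background. Mutant and control oocytes did not overlap for 1 of the 8 genes, Nlrp14, against 16.2% of all genes tested. With wt/wt oocytes alone as control, 2 of 8 were again called, here Nlrp4e and Nlrp14, against 31.5% of the genes tested in that comparison. The median log2 fold change was 0.30 over the 8 genes and 0.17 over all genes tested, and 4 of the 8 values lay above 0. Scaling by library totals in place of TMM moved the median of all genes to -0.23, and higher genes then made up 36.6% of the calls in place of 56.8%. The sign of each of the 8 log2 fold changes was the same under TMM, upper-quartile scaling and library totals.

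Nlrp14, a maternal factor reported to act with UHRF1 and importin, was the most abundant of the 8 genes per kb in mutant oocytes. Its level was 314, 269, 343 and 1106 CPM in wt1, wt3, wt4 and wt5 and 443 CPM in C3. In D1, D2, D3, D4 and D7 it was 14574, 5226, 6923, 16806 and 2179 CPM. Each mutant oocyte was above each control oocyte, D7 being the lowest mutant and wt5 the highest control. The f/f oocyte did not stand out from the wt/wt oocytes. Nlrp14 rose by a log2 fold change of 4.21 (standard error 0.61, Benjamini-Hochberg adjusted p = 0.000549, edgeR quasi-likelihood test, n = 5 and 5 oocytes), an 18.5-fold difference. The difference of mean log2 CPM was 4.09 against the wt/wt oocytes and 4.02 against the f/f oocyte. With the f/f oocyte alone as control the log2 fold change was 4.38, and the call was lost (Benjamini-Hochberg adjusted p = 0.110, edgeR quasi-likelihood test). In that fit 3 of 8811 genes were called. Of all genes tested, 2.17% had a larger log2 fold change than Nlrp14, which ranked 201 of 9198.

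In raw counts Nlrp14 had 568, 624, 839, 2466 and 1994 reads in wt1, wt3, wt4, wt5 and C3. It had 26573, 8579, 19442, 110497 and 4371 reads in D1, D2, D3, D4 and D7. It was among the most frequently counted transcripts of the mutant oocytes, with count ranks of 10, 33, 21, 4 and 66 in D1, D2, D3, D4 and D7. Its rank in the control oocytes ran from 90 in wt5 to 607 in wt3. It took up 0.205% of all counts in D7 to 1.60% in D4, against 0.0288% in C3 to 0.151% in wt5 among controls. Within the mutant group the highest CPM was 7.71 times the lowest, and within the control group 4.11 times. Both groups thus had a wide spread, which as a fold ratio was smaller than the 18.5-fold difference between their means. In CPM the mutants ran from 2179 to 16806, with group means of 495 in controls and 9142 in mutants. The nearest pair was D7 at 2179 CPM and wt5 at 1106 CPM.

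**Figure D1:**
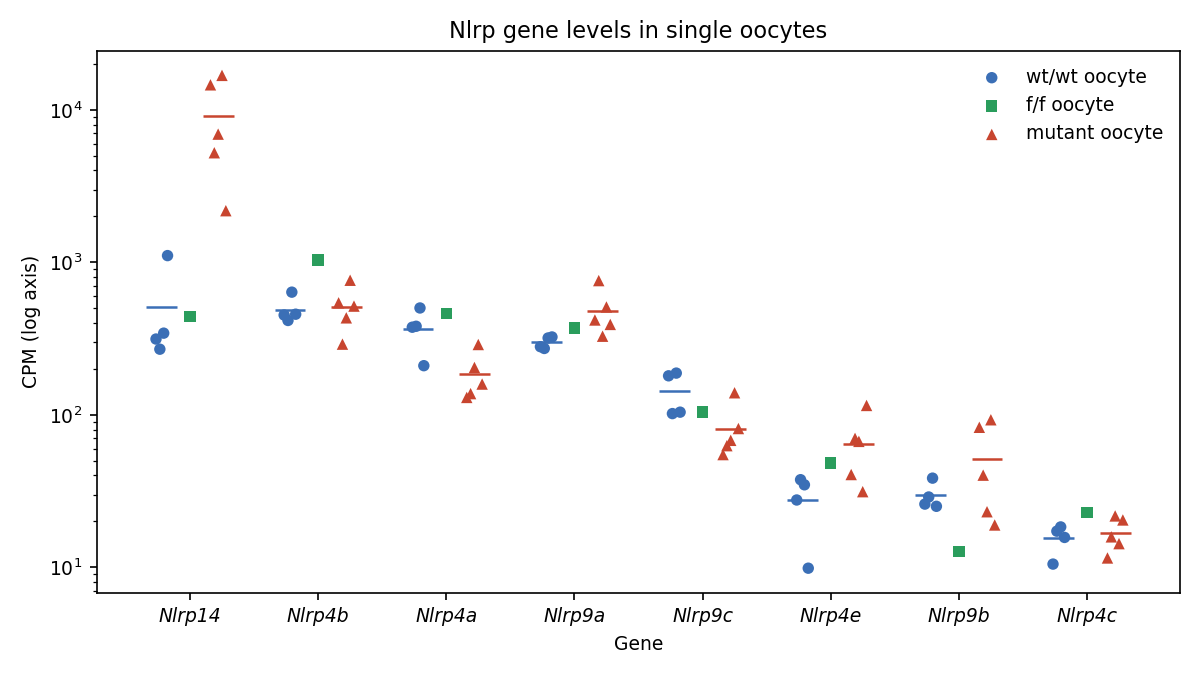
Level of each Nlrp gene in each oocyte, in CPM on a log axis, with wt/wt oocytes as circles, the f/f oocyte as a square, mutant oocytes as triangles and bars at the means of the wt/wt and mutant oocytes. Nlrp14 is the gene without overlap, with mutants from 2179 to 16806 CPM and controls from 269 to 1106 CPM.

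The Nlrp4 genes are paralogs of one another and related to human NLRP4, which dampens type I interferon signalling. Nlrp4a was at 375, 381, 502 and 210 CPM in wt1, wt3, wt4 and wt5 and at 460 CPM in C3. In D1, D2, D3, D4 and D7 it was at 130, 138, 204, 289 and 159 CPM. D1, D2, D3 and D7 were below all 5 controls, whereas D4 was above wt5, so the groups overlapped by this pair. Nlrp4a fell by 1.07 on the log2 scale (standard error 0.35, Benjamini-Hochberg adjusted p = 0.0338, edgeR quasi-likelihood test), a 2.09-fold lower level. The direction held in 22 of 22 alternatives, but the call was kept in 10 of them. It was lost without wt1, wt3, wt4, D1, D2 or D7, with adjusted p-values of 0.0603, 0.0567, 0.0783, 0.0742, 0.0652 and 0.0601 (Benjamini-Hochberg, edgeR quasi-likelihood test). Leaving out C3 gave an adjusted p of 0.0328 in that test, but the log2 fold change was -0.98 and so short of the threshold.

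Of Nlrp4a, Nlrp4b, Nlrp4c and Nlrp4e, Nlrp4b was the most abundant per kb in both groups. Its level was 451, 416, 637 and 457 CPM in wt1, wt3, wt4 and wt5, 1034 CPM in C3, and 542, 291, 432, 762 and 516 CPM in D1, D2, D3, D4 and D7. The f/f oocyte was the highest of all 10 and D2 the lowest, with the remaining mutants spread across the range of the wt/wt oocytes or above it. The log2 fold change was -0.24 (standard error 0.36, Benjamini-Hochberg adjusted p = 0.665, edgeR quasi-likelihood test), and it was 0.06 with wt/wt oocytes alone as control, -1.003 with the f/f oocyte alone and -0.54 with library totals, and called in none of these. Nlrp4c was the least abundant of the 8 per kb, at 10.5 to 22.9 CPM in controls and 11.5 to 21.7 CPM in mutants. These ranges nearly coincide, and with 19 to 103 counts per control and 21 to 94 per mutant oocyte the log2 fold change of -0.02 had a standard error of 0.40.

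Nlrp4e had 27.6, 37.5, 34.8 and 9.87 CPM in wt1, wt3, wt4 and wt5 and 48.4 CPM in C3. In D1, D2, D3, D4 and D7 it had 40.6, 70.1, 66.9, 31.3 and 115 CPM. D2, D3 and D7 were above all controls, D4 lay among the wt/wt oocytes, and wt5 was the lowest of the 10 with 22 counts. The log2 fold change of 1.03 (standard error 0.45) did not pass (Benjamini-Hochberg adjusted p = 0.101, edgeR quasi-likelihood test). It passed with wt/wt oocytes alone as control, that is without C3, at 1.26 and an adjusted p of 0.0457 in the same test, whereas it was 0.45 with the f/f oocyte alone.

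The Nlrp9 genes form the other rodent expansion, of which Nlrp9b is known from intestinal epithelium as a sensor of viral RNA together with the helicase DHX9. Nlrp9a had 280, 272, 319 and 324 CPM in wt1, wt3, wt4 and wt5, 372 CPM in C3, and 418, 758, 328, 510 and 391 CPM in D1, D2, D3, D4 and D7. D1, D2, D4 and D7 were above every control and D3 was above the wt/wt oocytes but below C3. The log2 fold change was 0.62 (standard error 0.32, Benjamini-Hochberg adjusted p = 0.163, edgeR quasi-likelihood test). It ran from 0.19 with library totals to 0.90 with GC and length trends removed, being 0.39 without D2 or with the f/f oocyte alone as control, and 0.76 without D3, and was called in none of these. The wt/wt and f/f oocytes were closest to each other for this gene, the highest control being 1.37 times the lowest.

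Nlrp9b had 26.0, 28.9, 38.4 and 25.1 CPM in wt1, wt3, wt4 and wt5, 12.7 CPM in C3, and 82.8, 40.2, 23.1, 92.8 and 18.9 CPM in D1, D2, D3, D4 and D7. Here the mutants differed among themselves, with D1, D2 and D4 above all controls and D3 and D7 below the wt/wt oocytes. C3 was the lowest of all 10 oocytes. The log2 fold change was 0.98 (standard error 0.47, Benjamini-Hochberg adjusted p = 0.134, edgeR quasi-likelihood test). It was 0.46 with limma voom, 0.45 with library totals, 0.50 with thinned counts and 2.04 with the f/f oocyte alone as control, and it was called in none of these.

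Nlrp9c went in the other direction in sign. It had 180, 102, 188 and 104 CPM in wt1, wt3, wt4 and wt5, 105 CPM in C3, and 54.8, 62.7, 68.0, 139 and 81.3 CPM in D1, D2, D3, D4 and D7. D1, D2, D3 and D7 were below all 5 controls and D4 lay between them. The log2 fold change was -0.73 (standard error 0.36, Benjamini-Hochberg adjusted p = 0.142, edgeR quasi-likelihood test). Without D4, the mutant oocyte that also overlapped the controls for Nlrp4a, it was -1.01 with an adjusted p of 0.0464 in the same test. With library totals in place of TMM it was -1.19, and with the f/f oocyte alone as control -0.34.

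**Figure D2:**
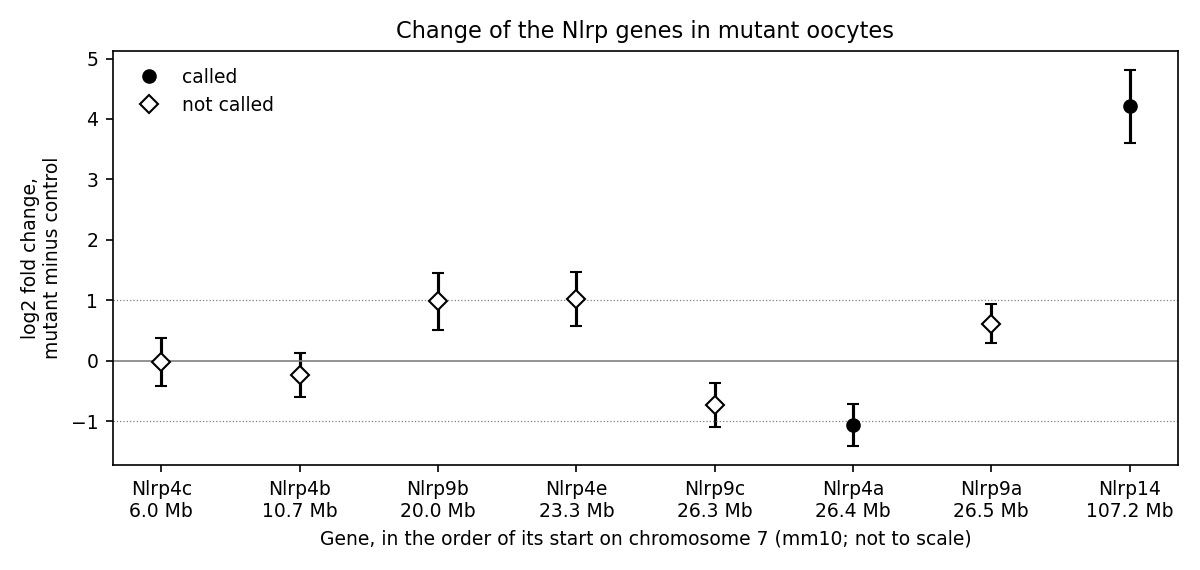
Log2 fold change between control and mutant oocytes for each Nlrp gene, positive where mutants are higher, with its standard error, in order of the gene's start on chromosome 7, with filled circles for called genes and open diamonds for the others. Nlrp14 is at 4.21 and Nlrp4a at -1.07, and the 6 genes that were not called lie from -0.73 to 1.03.

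A share of the summed counts of the 8 genes does not depend on how libraries are scaled. Nlrp14 made up 18.9%, 17.7%, 16.5%, 49.1% and 17.7% of them in wt1, wt3, wt4, wt5 and C3. In D1, D2, D3, D4 and D7 it made up 91.9%, 79.2%, 85.8%, 90.1% and 62.6%. The shares of the groups did not overlap, and wt5 was again the control nearest to the mutants. In the controls the set was led by Nlrp4b, with a median of 27.3%, and Nlrp4a, with 22.6%, whereas in the mutants these medians were 4.40% and 2.09%. A share also falls when the counts of another of the 8 genes rise. In CPM the log2 fold change of Nlrp4b was -0.24 and not called.

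Without Nlrp14, the other 7 genes summed to 1350, 1254, 1737, 1145 and 2055 CPM in wt1, wt3, wt4, wt5 and C3, and to 1281, 1376, 1144, 1839 and 1302 CPM in D1, D2, D3, D4 and D7. These sums overlapped over most of their range. Among the 7 genes, Nlrp4a took 18.3% to 30.4% of the counts in controls and 10.01% to 17.9% in mutants. The margin between these ranges is narrow, and in CPM the groups overlapped for Nlrp4a, D4 being above wt5. The median share of Nlrp4b was 36.7% in controls and 39.6% in mutants, with ranges of 33.1% to 50.3% and 21.1% to 42.4%. The share of Nlrp9a was 18.1% to 28.3% in controls and 27.7% to 55.1% in mutants. That of Nlrp9c was 5.09% to 13.3% in controls and 4.28% to 7.58% in mutants. The share of one gene also depends on the counts of the others. Shares among the 7 or the 8 genes are descriptions, have no background over all genes and were not tested.

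**Figure D3:**
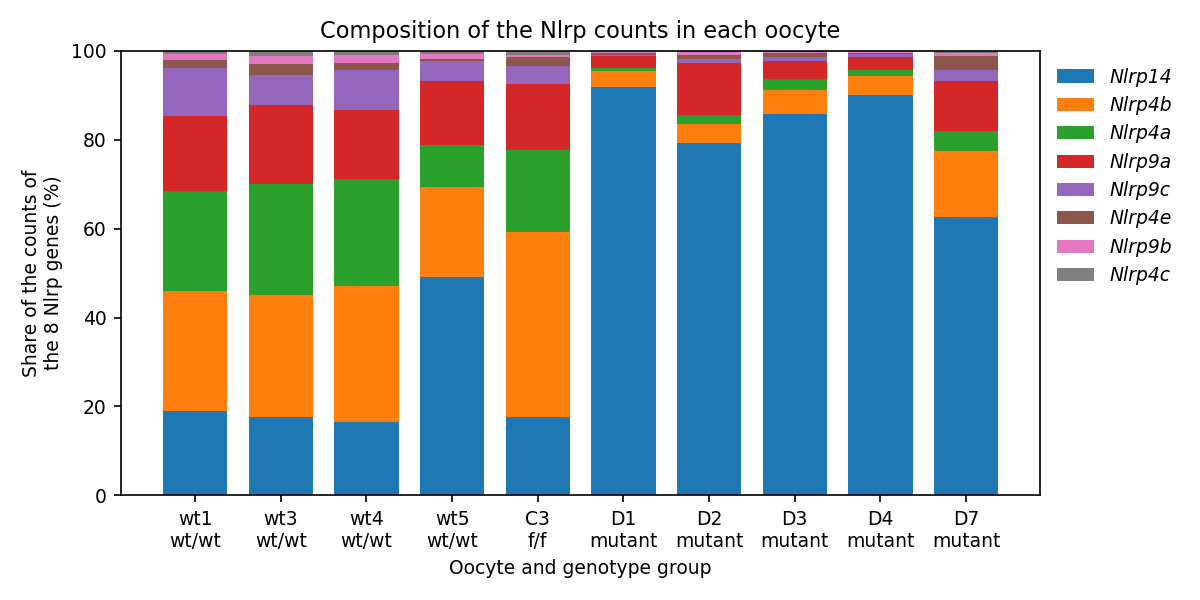
Share of each Nlrp gene, in percent, of the summed counts of the 8 genes in each oocyte, with wt/wt and f/f oocytes on the left and mutant oocytes on the right. Nlrp14 takes 16.5% to 49.1% in control and 62.6% to 91.9% in mutant oocytes.

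Levels were compared between genes as CPM per kb of annotated exon. In control oocytes Nlrp14 had 140 ± 98.3 CPM per kb (SD, n = 5), Nlrp4b 133 ± 57.5, Nlrp9a 90.0 ± 11.5 and Nlrp4a 79.6 ± 23.1. These 4 neighbours in the order did not differ beyond their spread. Nlrp9c followed at 22.9 ± 7.44 CPM per kb, and its range of 17.2 to 31.6 lay apart from those of Nlrp4a and of Nlrp4e. Nlrp4e at 9.31 ± 4.20, Nlrp9b at 7.04 ± 2.48 and Nlrp4c at 4.23 ± 1.12 CPM per kb formed the low end, where each range overlapped that of the next gene. In mutant oocytes Nlrp14 stood apart at 2585 ± 1771 CPM per kb (SD, n = 5), followed by Nlrp9a at 138 ± 48.3 and Nlrp4b at 113 ± 38.4, whose ranges overlapped. Nlrp4a at 38.0 ± 13.5 CPM per kb was next, then Nlrp4e at 19.1 ± 9.62, Nlrp9b at 13.9 ± 9.18 and Nlrp9c at 13.7 ± 5.72, with overlap between neighbours. Nlrp4c was again the lowest at 4.18 ± 1.06. If length is limited to the 3000 bases nearest the 3′ end, the control order of Nlrp14 and Nlrp4b is exchanged, and so is that of Nlrp9a and Nlrp4a. In the mutant order, checked after the data were seen, Nlrp4b then passes Nlrp9a, and Nlrp9c passes Nlrp4e and Nlrp9b.

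The authors kept reads of 49 bases with a unique best alignment and fewer than 2 mismatches, so reads that match a copy equally well are lost, while a read that matches its own gene better is kept. Windows of read length in the last 3000 bases of each transcript were compared with all other transcripts of the GENCODE annotation, allowing 1 mismatch. The authors aligned reads to the genome, and its sequence outside annotated transcripts was not compared. None of the 2952 windows of Nlrp14 had a match in another gene, and 99.9% of those of Nlrp4b had none. The shares were 88.4% for Nlrp9b, 87.3% for Nlrp4a, 85.6% for Nlrp9c and 83.9% for Nlrp9a. Between them, the windows of Nlrp4a had matches in 1034 other genes. Nlrp9a and Nlrp9c shared 305 windows, and Nlrp9a shared 229 with Nlrp9b. The share was 68.5% for Nlrp4c, which had 722 windows in common with Nlrp4e. It was 34.7% for Nlrp4e, of which 1542 windows matched the unprocessed pseudogene Gm16443 and 1327 to 1540 each of Gm8486, Gm8685, Gm8728 and Gm4541. These windows hold near matches as well as ties, so not every read from them is lost. An identical match in another gene, which ties for a read without errors, was found for 1054 windows of Nlrp4e, 344 of Nlrp4c, 224 of Nlrp9a, 210 of Nlrp9b, 166 of Nlrp9c and 136 of Nlrp4a, a count added after the data were seen. By windows shared with other transcripts alone, counts of Nlrp4e and Nlrp4c are therefore the most uncertain. Nlrp14 had no window with a match, and Nlrp4b had 3, each with 1 mismatch, 2 of them to its paralog Nlrp4g. If the level per kb is also divided by this share, Nlrp4e passes Nlrp9c in the control order. In the mutant order Nlrp4e then passes Nlrp4a, and Nlrp9c passes Nlrp9b.

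Paired libraries of 1 oocyte name show how far the values repeat. Over the 32 pairs of a gene and an oocyte the median absolute log2 ratio, relative to the library totals, was 0.24, and 4 pairs were over 1. For Nlrp14 the largest was 0.46 and for Nlrp4a 0.19. The largest of all was 1.32, for Nlrp9b in D3, with 56 and 9 counts in its libraries. The largest ratio was 0.19 to 0.52 for Nlrp4a, Nlrp9a, Nlrp14 and Nlrp4b and 0.98 to 1.32 for the less abundant Nlrp4e, Nlrp9c, Nlrp4c and Nlrp9b. For Nlrp4b, Nlrp4c, Nlrp9b and Nlrp9c it exceeded the size of the log2 fold change between the groups.

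All 8 genes lie on chromosome 7 of GRCm38 (mm10). In order, Nlrp4c is at chr7:6045161-6105150, Nlrp4b at chr7:10687789-10730168, Nlrp9b at chr7:19991465-20073306 and Nlrp4e at chr7:23301192-23362277, all on the plus strand. Nlrp9c at chr7:26322473-26403700 on the minus strand, Nlrp4a at chr7:26435113-26476142 and Nlrp9a at chr7:26535023-26575615, both on the plus strand, are direct neighbours. In this cluster Nlrp4a was called lower, while Nlrp9c at -0.73 and Nlrp9a at 0.62 were not called and differ in sign. Nlrp14 is at chr7:107166990-107198102 on the plus strand, far from the others. The gene spans of the 8 overlap no other gene of the table. Gm45379 lies within Nlrp4b and Krt8-ps within Nlrp4e, and Gm18877 overlaps the end of Nlrp9b, each on the same strand, while n-R5s152 lies opposite Nlrp9b.

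Within 500 kb of the 8 genes the table holds 134 other genes, of which 18 were tested. Of these 3 were called higher and 0 lower. Among all genes tested, 14.7% were called higher, which is close to the share here, and 11.2% lower, together 25.9%. Clptm1, at 1.11 CPM in control and 18.3 CPM in mutant oocytes on average, and Vmn1r-ps79, at 0.0444 and 2.38 CPM, lie near Nlrp9b. Zfp583, with 0 CPM in each control and 4.03 CPM on average in mutants, lies near Nlrp4c. Nlrp5, the neighbour of Nlrp4e and a gene of the subcortical maternal complex, had 145, 138, 114 and 1751 CPM in wt1, wt3, wt4 and wt5, 136 CPM in C3 and 707 to 1503 CPM in mutants. Here too wt5 stood above the other controls, and the log2 fold change of 1.29 was not called (Benjamini-Hochberg adjusted p = 0.173, edgeR quasi-likelihood test). The single tested neighbour of Nlrp14 was Ppfibp2, at a log2 fold change of 1.39 (adjusted p = 0.154 in the same edgeR test). Among the neighbours of Nlrp4a, Nlrp9a and Nlrp9c only Cyp2a4 was tested, and it was not called.

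For each Nlrp gene the genes with the most similar profile over the 10 oocytes were taken as those with the smallest root mean square difference of mean-centred log2 CPM, among 2766 genes. For Nlrp14, whose own profile had a root mean square of 2.23, they were Nsf (0.46), Zp2 (0.48) and Nusap1 (0.50), a fusion ATPase, a zona pellucida protein and a spindle protein. For Nlrp4a (0.69) they were Lrr1 (0.22), Arl8b (0.22) and Ncoa4 (0.28), and Nlrp9c (0.38) had rank 52. For Nlrp9c (0.58) they were Pnpla8 (0.27), Abl2 (0.29) and Prex2 (0.31), with Nlrp4a at rank 22. No other member was as near to one of the 8 as Nlrp4a and Nlrp9c were to each other. The nearest genes to Nlrp4b were Sfpq, Ctcf and Atxn2, to Nlrp4c Cnot7, Hsbp1 and Arpp19, and to Nlrp4e Gtf2a2, Kdelr2 and Rab3gap2. Those of Nlrp9a were Hbp1, Nap1l4 and Hdlbp and those of Nlrp9b Ski, Ccdc62 and Cdk7.

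RefSeq promoters of build GRCm38.p6, from 250 bases before to 50 after a start, were given for 7 of the 8 genes, Nlrp14 being the other, with a pair of starts each for Nlrp4a and Nlrp4b. Both strands were searched for the elements TAATTG and, as a variant of it, TAATTA, both bound by the oocyte factor NOBOX, for the E-box CANNTG, for its special form CAGGTG, which is always also a match to the E-box, and for the TATA box TATAAA. Of 32851 promoters 8.00% held TAATTG, 5.29% held TAATTA, 72.3% held CANNTG, 20.2% held CAGGTG and 13.6% held TATAAA. Each promoter of the 7 genes held CANNTG, and those of Nlrp9a, Nlrp9b and Nlrp9c held CAGGTG as well. The element TAATTG was matched 2 times in Nlrp9a and 1 time in Nlrp9b, TAATTA 2 times in Nlrp9a and TATAAA 1 time in Nlrp9b. The pairs of different genes with the highest identity in a global alignment were Nlrp4b with the downstream start of Nlrp4a (70.8%) and Nlrp9c with Nlrp9a (70.3%). Their promoters are printed to show how alike the sequences are within these pairs. The log2 fold changes were -1.07 for Nlrp4a and -0.24 for Nlrp4b, and 0.62 for Nlrp9a and -0.73 for Nlrp9c, and the difference within a pair was not tested. They lie at chr7:26435364-26435663 (Nlrp4a, plus strand), chr7:10687543-10687842 (Nlrp4b, plus strand), chr7:26534773-26535072 (Nlrp9a, plus strand) and chr7:26403651-26403950 (Nlrp9c, minus strand). Capitals mark matches to the motifs searched.
Nlrp4a: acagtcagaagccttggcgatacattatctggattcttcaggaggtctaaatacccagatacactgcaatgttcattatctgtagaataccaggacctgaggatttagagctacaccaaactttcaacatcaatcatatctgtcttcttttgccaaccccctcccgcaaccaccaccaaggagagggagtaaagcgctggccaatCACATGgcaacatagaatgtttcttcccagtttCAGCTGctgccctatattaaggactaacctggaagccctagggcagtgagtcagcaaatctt
Nlrp4b: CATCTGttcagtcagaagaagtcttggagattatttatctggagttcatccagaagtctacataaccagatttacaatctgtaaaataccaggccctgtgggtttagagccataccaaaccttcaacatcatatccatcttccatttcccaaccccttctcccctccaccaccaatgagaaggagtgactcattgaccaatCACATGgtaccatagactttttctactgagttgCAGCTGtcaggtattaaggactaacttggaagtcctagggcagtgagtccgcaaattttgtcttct
Nlrp9a: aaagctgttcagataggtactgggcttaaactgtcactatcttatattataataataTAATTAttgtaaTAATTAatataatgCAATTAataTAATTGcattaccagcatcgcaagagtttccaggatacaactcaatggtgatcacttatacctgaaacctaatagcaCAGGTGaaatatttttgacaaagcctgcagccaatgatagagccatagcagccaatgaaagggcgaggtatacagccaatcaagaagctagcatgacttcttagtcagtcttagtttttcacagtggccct
Nlrp9c: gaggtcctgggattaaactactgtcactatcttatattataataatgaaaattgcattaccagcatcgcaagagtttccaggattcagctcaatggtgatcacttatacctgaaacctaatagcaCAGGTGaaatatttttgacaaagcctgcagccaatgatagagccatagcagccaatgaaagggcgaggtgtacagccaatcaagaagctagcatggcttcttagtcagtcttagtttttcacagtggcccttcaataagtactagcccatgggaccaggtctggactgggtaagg

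Among the other NLR genes 24 of 25 were in the table, and 8 of these had no count in any oocyte. Of the 9 tested, 2 were called higher and 0 lower, against 14.7% and 11.2% of all genes tested. The median log2 fold change of the 9 was -0.23, against 0.17 over all genes tested. The 2 called were Nlrp1a, an inflammasome sensor, at a log2 fold change of 2.08, and Naip1, a sensor of bacterial secretion needles, at 2.79. Both were low, with means of 2.33 and 2.72 CPM in control and 10.2 and 18.3 CPM in mutant oocytes. By mean CPM the highest was Nlrp4f in control oocytes, at 753 against 457 for Nlrp5, and Nlrp5 in mutant oocytes, at 1120 against 420 for Nlrp4f. Of 15 inflammasome partners 6 were tested, with a median of 0.02, and Txnip, a binding partner of thioredoxin, was called higher, from 1004 ± 587 to 4666 ± 2529 CPM (SD, n = 5 each). Casp4, Gsdmd, Il1b, Mefv and Card9 had no count in any oocyte.

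All genes tested had a median log2 fold change of 0.17, and 14.7% of them were called higher. Of 5 genes listed with NLRP14, whose partnership with it was not examined here, 4 were tested. Their median log2 fold change was 2.70, and 3 were called higher. These were the importin Kpna2 with a log2 fold change of 4.04, the DNA methyltransferase Dnmt1 with 3.13 and Dppa3 with 2.27. Uhrf1, which recruits DNMT1, had 432 ± 336 CPM in control and 985 ± 420 CPM in mutant oocytes (SD, n = 5 each) and was not called. Its mean was 289 CPM in wt/wt oocytes, and the f/f oocyte, at 1001 CPM, lay near the mean of the mutants. The f/f oocyte also had 2030 CPM of Dnmt1 and 5556 CPM of Dppa3, above the wt/wt means of 322 and 937 CPM, and 75.7 CPM of Kpna2, below the wt/wt mean of 135 CPM.

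Of the 8 genes of the subcortical maternal complex 8 were tested, and Ooep, Tle6, Khdc3 and Padi6 were called higher, at log2 fold changes of 4.55, 2.69, 2.88 and 3.43. The median of the 8 was 2.24, against 0.17 over all genes tested, of which 14.7% were called higher. Nlrp2 and Nlrp4f, NLR genes of the complex, were not called, at -0.39 and -0.84. Zbed3 was its most abundant gene, at a mean of 1173 CPM in wt/wt oocytes, 124408 CPM in C3 and 89071 CPM in mutant oocytes, and it was not called. A gene of that abundance takes up a share of the library in f/f and mutant oocytes that it does not in wt/wt oocytes, and its part in the CPM of the 8 Nlrp genes was not tested.

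Over all genes tested the shares called higher and lower were 14.7% and 11.2%, with a median log2 fold change of 0.17. Of 15 oocyte markers 15 were tested, and 9 were called higher and 0 lower, with a median log2 fold change of 1.76. They summed to 28323 to 47022 CPM in wt/wt oocytes, 89650 CPM in C3 and 71340 to 152971 CPM in mutants, with Gdf9 the most abundant. Bmp15, Oosp1, Ddx4, Mos, Kit and H1foo were not called. Of 10 oocyte transcription factors 8 were tested, with Figla, Nobox and Lhx8 called higher and Taf4b lower and a median of -0.03. Of 15 cumulus and granulosa markers 3 were tested, 8 had no count in any oocyte, Amh, Foxl2 and Fshr among them, and Cyp19a1 was called higher, the median being -0.34. Their sum was 20.6 to 79.6 CPM in wt/wt oocytes, 71.3 CPM in C3 and 85.9 to 156 CPM in mutants, with Cyp19a1 the most abundant. Of 9 immune markers with an entry 1 was tested and 0 called, with Cd68 at 0.977 CPM in control and 3.92 CPM in mutant oocytes as the most abundant. Ptprc, Lyz2, Cd14 and Cd3e were at 0 counts in all oocytes. The part of these markers in the Nlrp values was not tested.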

How the data were processed

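Single-oocyte cDNA was made by a poly(A)-primed method that covers up to about 3000 bases from the 3′ end, and was read as single ends of 49 bases. The deposited values are raw read counts per RefSeq gene. By the methods and processing notes of the study, the authors filtered reads for quality and for A and T stretches. They aligned them to mm10 with TopHat 2.0.6, kept unique best alignments with fewer than 2 mismatches and counted with HTSeq. The HTSeq version is 0.5.3p9 in the processing notes, whereas the methods name a later one. The strand setting is not given in the sources used here. The 14 oocyte libraries were used, those of a shared name summed. Embryo libraries were not analysed here.

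Genes with a count (15432) were ranked by total count and the top 60% (9198) kept. The test of mutants against controls was run with edgeR 4.0.16 under R 4.3.3 (TMM, glmQLFit, glmQLFTest, genotype as the single term, Benjamini-Hochberg adjustment over all 9198). TMM factors were 1.30 to 1.37 in wt/wt, 0.651 in f/f and 0.779 to 0.952 in mutant oocytes. Log2 CPM used a prior count of 2, and standard errors are the absolute log2 fold change divided by the square root of F. The fit was tested on simulated counts. Positions came from GENCODE M21 by gene name for 22829 of the 24064 genes (94.9%) and promoters from RefSeq. Other scripts ran in Python 3.11.15. Depth was 1375187 to 6928548 counts per oocyte, and at the lowest total 3 counts are the floor of a gene without reads.

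Named genes were the 8 Nlrp genes, Kdm1a, Nnt, called members of each list, the 3 most similar genes of a mean log2 CPM of at least 5, and called neighbours within 500 kb. Other genes of the lists were named after their values were seen. Members and lists were chosen with earlier results of these data known. Shares among the 8 genes, their summed levels and promoter identity were added as descriptions after the data were seen.

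Alternatives were DESeq2 1.42.0, limma 3.58.1 voom with quality weights, scaling by upper quartiles or by library totals, filterByExpr or no filter, adjusted p alone, each of the 14 libraries taken separately, the library without suffix alone, wt/wt or f/f oocytes alone as control, thinned counts, removal of GC and length trends, and leaving out each oocyte. For the order of levels they were the length limited to 3000 bases and the share of windows without another match.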

Additional observations from a re-analysis of the deposited data

Results flagged for a closer look

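The Nlrp14 level of wt5, 1106 CPM, stood apart from the other control oocytes at 269 to 443 CPM. Its gap to the nearest value was 0.793 of the range of the 5 controls and 0.912 of that of the 4 wt/wt oocytes, past the 95% limit of Dixon's test for their number. On the log2 CPM scale, which was examined before CPM was added, the fractions were 0.648 and 0.8287, and no set was past its limit, the second by a narrow margin. In all, 48 sets of a gene, a group and a scale were tested and 2 were past the limit, whereas chance gives about 1 in 20, that is 2.4. Without wt5 the log2 fold change of Nlrp14 was 4.78, against 4.21 with it.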

How the results depend on the processing

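In the edgeR quasi-likelihood test with Benjamini-Hochberg adjusted p-values, 2 of the 8 Nlrp genes were called. The count was 1 with no filter, 1 with filterByExpr and 0 with the f/f oocyte alone as control, where 2 had an unadjusted p under 0.05. It ran from 1 to 3 when each oocyte was left out in turn. A count of 2 was not always of the same genes, being Nlrp4e and Nlrp14 with wt/wt oocytes alone or with GC and length trends removed. It was 3 with limma voom, with Nlrp4e added, and with library totals or without D4, with Nlrp9c added. Over all genes 3171 of 9198 were called with limma voom, 2631 of 9198 with library totals, 1942 of 8783 without D4, 2540 of 15432 with no filter and 1838 of 6022 with filterByExpr, so these counts of the 8 are read against a background that moves too. Nlrp14 was called in 21 of 22 alternatives, at 3.72 to 4.36, and at 3.88 to 4.78 when an oocyte was left out. The exception was the f/f oocyte alone (4.38), whose spread has to be taken from the mutants. Nlrp4a was called in 10 of 22, where wt/wt oocytes alone and without C3 are the same fit. The sign of Nlrp4b turned with wt/wt oocytes alone, that is without C3 (0.058), and leaving out oocytes gave -0.42 to 0.058. That of Nlrp4c turned with limma voom (0.058), filterByExpr (0.034), wt/wt oocytes alone (0.12) and GC and length trends removed (0.16), and leaving out oocytes gave -0.15 to 0.12. The cause of these changes was not tested. The signs of the other 6 genes held in 22 of 22. Over all genes 2384 were called, and 3 of 8811 with the f/f oocyte alone. The control order per kb moved for 4 genes with length limited to 3000 bases and for 2 with the window share. The mutant order, checked after the data were seen, moved for 5 and 4. No paired analysis was possible because the numbers in the descriptions count libraries, paired libraries of an oocyte having different numbers, and nothing in the labels ties a number to a female or batch. Protein identity between the Nlrp genes, which had been planned, was not run. Depth limits Nlrp4c, Nlrp4e and Nlrp9b most, with 19, 22 and 38 counts in their lowest oocyte.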
